A study of Drosophila melanogaster with 8 samples.

Results

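The genes described here are patterning factors of the fly reproductive tract: the transcription factor genes lz, dac, en, ems, peb, kni, knrl, eg and Abd-B, and the signal gene hh. Their probe sets were found by gene symbol in the array's probe annotation. The genes themselves were chosen with earlier results of these data known. Of these 10 genes, 9 have a probe set with that symbol alone, 1 probe set each, out of 18769 probe sets after controls were removed. Abd-B, the Hox gene of the posterior abdomen and genitalia, has no probe set under its symbol in that annotation and was not analysed here.

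RNA was measured in 2 organs of 4-day-old mated Drosophila melanogaster females, with 2 arrays per group. The organs were the spermathecae, the paired glands that store sperm, and the lower reproductive tract after the spermathecae had been removed. Each was dissected from wild-type females, whose strain the labels do not name, and from females carrying Hr39(04443), a single mutant allele of the gene for the nuclear receptor Hr39. The 4 groups are therefore wild-type lower tract, mutant lower tract, wild-type spermathecae and mutant spermathecae. Strain background and the mutation cannot be told apart in the comparison of genotypes, and in whole organs fewer cells of a type and less RNA per cell cannot be told apart.

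The female genital tract of the fly grows from the genital disc, whose cells are assigned to segments and compartments by Hox and segment polarity genes. Engrailed marks posterior compartments and Hedgehog is the secreted signal that such cells send to their neighbours. Lozenge, a Runx-family factor, is known from its mutants to be needed for the spermathecae and the parovaria, and Dachshund is known for a role in the spermathecal ducts. The kni, knrl and eg products form one family of zinc-finger proteins that resemble nuclear receptors but lack a ligand-binding domain. The arrays measured these genes in the finished adult organs, not in the disc.

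The values are MAS5 signals on a linear scale, which the authors had scaled to the same trimmed mean on every array. The median probe set of an array read between 17.7 and 22.5, and no detection calls were given, so signals below the median of their own array are described as low. Arrays of a group correlated with r from 0.953 to 0.964 across probe sets, and the highest r between arrays of different groups was also 0.953. Wild-type lower tract replicate 1 stood apart in germline transcripts, whose 10 marker probe sets summed to 3276 there against 75.4 to 308 on the other 7 arrays. Markers of spermathecal secretory cells, 5 probe sets, summed to 69903 to 98931 on the spermatheca arrays and to 239 to 4563 on the lower tract arrays. Hr39 itself has 4 probe sets, which differed in how mutant and wild-type spermathecae compared. On 1628556_s_at the arrays overlapped (limma, log2 difference -0.05, adjusted p = 0.941), and on 1632845_at the mutant signals were below the array medians. On 1631402_s_at both mutant arrays were lower, but the difference did not pass (log2 -0.57, adjusted p = 0.0904). Only 1630002_s_at, also lower on both mutant arrays, passed the test (limma, log2 difference -0.73, adjusted p = 0.0361). That call was lost under 4 settings (no filter, median centring, no variance trend and quantile normalization, adjusted p from 0.0519 to 0.0878) and without either array of the mutant lower tract (0.0669 and 0.0672), either array of mutant spermathecae (0.141 and 0.209) or wild-type spermathecae replicate 1 (0.144). Whether the arrays of a group came from separate animals is not stated in the labels. P-values therefore cover only the spread among these samples, possibly a technical one.

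In wild-type females 4 of the genes were higher in the spermathecae (lz, peb, hh and dac) and 5 were higher in the rest of the lower tract (en, ems, kni, knrl and eg). All 9 passed the test (limma, adjusted p below 0.05), where 43.5% of the 10113 probe sets tested did, 22.1% higher and 21.4% lower in spermathecae. This count is a description only, since 6 of the 9 entered the test through 1 organ: lz was below the array medians on all 4 lower tract arrays, and en, ems, kni, knrl and eg were below them on all 4 spermatheca arrays. The arrays of the organs did not overlap for any of the 9 genes in either genotype, against 69.7% of all probe sets tested in wild type and 78.6% in the mutant.

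**Figure D1:**
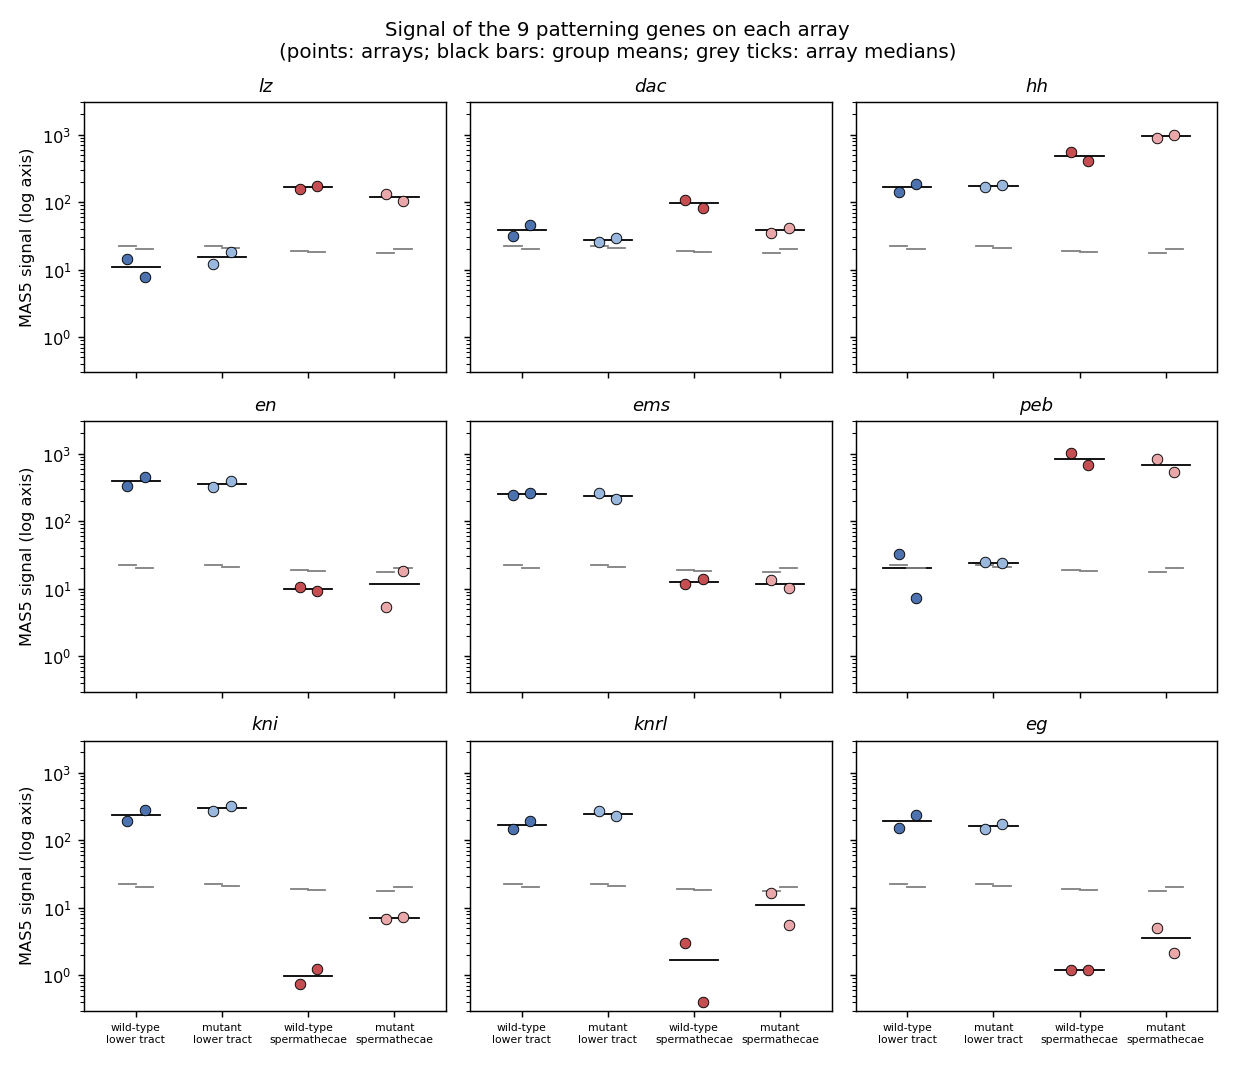
MAS5 signal (log axis) of the 9 genes on each of the 8 arrays, by group. Points are arrays, black bars are group means and grey ticks are the median signal of each array. For lz, peb, hh and dac the spermatheca arrays lie above the lower tract arrays, and for en, ems, kni, knrl and eg they lie below the array medians.

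Among the genes higher in the spermathecae, peb had the widest gap. It encodes Hindsight, a zinc-finger factor that follicle cells turn on in response to Notch. Its probe set 1622949_at read 1014 and 670 on the wild-type spermatheca arrays and 33.1 and 7.27 on those of the lower tract. The log2 difference was 5.43 (SE 0.491, limma adjusted p = 1.6e-05). With signals under an array's median raised to that median, spermathecae were at least 31.6-fold higher. In the mutant peb read 827 and 544 in spermathecae and 24.8 and 23.7 in the lower tract (log2 4.63, SE 0.491, adjusted p = 4.43e-05). Both organs' levels overlapped between the genotypes, so the order was spermathecae of either genotype, then lower tract of either genotype.

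The Runx factor gene lz, on 1633299_at, read 156 and 175 in wild-type spermathecae and 14.3 and 7.75 in wild-type lower tract. The log2 difference was 3.62 (SE 0.34, limma adjusted p = 2.03e-05), and spermathecae were at least 7.67-fold higher with the lower tract signals raised to the array medians. Mutant spermathecae read 132 and 103 against 12.1 and 18.2 in the mutant lower tract (log2 2.74, SE 0.34, adjusted p = 0.000125). The lower tract arrays differed in how much secretory-cell signal they held, with marker sums of 1691 and 239 in wild type and 4563 and 858 in the mutant. The lz signals of all 4 lie below the medians and have no readable order, and the part of secretory cells in the lower tract levels was not tested.

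The signal gene hh was well above the array medians on all 8 arrays. Probe set 1626527_at read 546 and 409 in wild-type spermathecae and 142 and 188 in wild-type lower tract, a log2 difference of 1.51 (SE 0.196, limma adjusted p = 0.000181), or 2.86-fold. In the mutant it read 902 and 988 against 169 and 177, a log2 difference of 2.42 (SE 0.196, adjusted p = 6.66e-06), or 5.37-fold. The order of hh was mutant spermathecae, wild-type spermathecae and then both lower tracts, whose arrays overlapped.

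For dac, whose product is a nuclear cofactor of eye, leg and genital development, 1633341_s_at read 109 and 83.1 in wild-type spermathecae and 31.8 and 45.5 in wild-type lower tract. The log2 difference was 1.26 (SE 0.307, limma adjusted p = 0.00825). The call was lost without wild-type spermathecae replicate 1 (log2 1.07, adjusted p = 0.0519), and over the 8 fits that left out 1 array the adjusted p ranged from 0.0108 to 0.0519. In the mutant dac read 34.9 and 41.7 in spermathecae and 25.8 and 29.6 in the lower tract, and the difference did not pass (log2 0.43, SE 0.307, adjusted p = 0.284). In the mutant 8 of the 9 genes passed between the organs, dac being the exception, with 3 higher and 5 lower in spermathecae, where 45.9% of probe sets did, 24.6% higher and 21.3% lower. As in wild type, this count is a description only. Levels of dac were highest in wild-type spermathecae, and the arrays of mutant spermathecae overlapped those of wild-type lower tract.

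Of the 5 genes higher in the lower tract, en is the selector of posterior compartments. Its probe set 1627445_s_at read 330 and 456 in wild-type lower tract and 10.7 and 9.11 in wild-type spermathecae (log2 difference of spermathecae minus lower tract -4.93, SE 0.399, limma adjusted p = 7.34e-06). In the mutant the lower tract arrays read 318 and 391 and the spermatheca arrays 5.41 and 18.0 (log2 -4.74, SE 0.399, adjusted p = 8.85e-06). With the spermatheca signals raised to the array medians, en was at least 20.7-fold lower in the spermathecae of wild type and at least 18.7-fold lower in those of the mutant.

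The homeobox gene ems, known from head and posterior spiracle formation in the embryo, varied little between replicate arrays. On 1628289_at it read 241 and 266 in wild-type lower tract, 257 and 211 in mutant lower tract, 11.6 and 13.8 in wild-type spermathecae and 13.5 and 10.2 in mutant spermathecae. The log2 differences between the organs were -4.03 (SE 0.265, limma adjusted p = 1.82e-06) in wild type and -4.00 (SE 0.265, adjusted p = 1.69e-06) in the mutant. In each organ the genotypes overlapped.

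The family of receptor-like zinc-finger genes was on the lower tract side with all 3 members. The gap gene kni, on 1629097_at, read 196 and 284 in wild-type lower tract and 268 and 322 in the mutant, against 0.734 and 1.23 in wild-type spermathecae and 6.82 and 7.21 in mutant spermathecae. Its relative knrl, on 1626059_at, read 144 and 194 in wild-type lower tract and 268 and 229 in the mutant, against 2.96 and 0.399 in wild-type spermathecae and 16.6 and 5.60 in mutant spermathecae. The third, eg, is known from the specification of serotonin neurons in the embryo. On 1629326_s_at it read 152 and 233 in wild-type lower tract and 146 and 174 in the mutant, against 1.18 and 1.20 in wild-type spermathecae and 4.95 and 2.17 in mutant spermathecae.

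In wild type the log2 differences between the organs were -5.91 for kni (SE 0.315, limma adjusted p = 4.21e-07), -5.24 for knrl (SE 0.447, adjusted p = 1.03e-05) and -5.51 for eg (SE 0.379, adjusted p = 2.36e-06). In the mutant they were -4.89, -4.27 and -4.66 in the same order, with adjusted p of 1.39e-06, 4.02e-05 and 6.88e-06. Because the spermatheca signals of these genes lie far below the array medians, the sizes depend on the pseudocount. With signals raised to the medians, kni, knrl and eg were at least 12.6-fold, 8.95-fold and 10.1-fold lower in wild-type spermathecae, and at least 15.6-fold, 13.2-fold and 8.45-fold lower in mutant spermathecae.

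**Figure D2:**
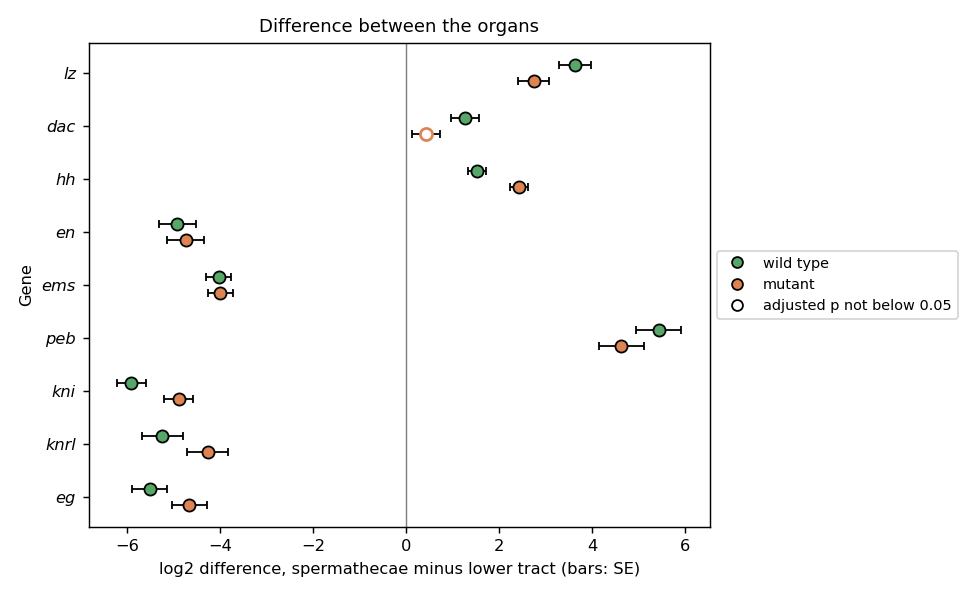
Difference between the organs (log2, spermathecae minus lower tract) for each gene in wild type and in the mutant, with bars for the SE. Filled points passed the test (limma adjusted p below 0.05) and the open point, dac in the mutant at 0.43, did not; lz, dac, hh and peb lie right of 0 and the other 5 genes lie left of it.

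Several of these genes have a close relative near them on the chromosome, and the relatives were higher in the same organ. This is a description only, since inv, E5, kni and knrl were below the array medians on all 4 spermatheca arrays. They entered the test through the lower tract. In the Release 6 annotation inv, which encodes a homeodomain protein closely related to Engrailed, is the gene beside en, and E5, a homeobox gene of the same class as ems, is the gene beside ems. Between kni and knrl lie 7 annotated genes, of which 1, CG13251, codes for a protein. Probe set 1623909_s_at of inv read 81.8 and 88.1 in wild-type lower tract and 1.68 and 8.23 in wild-type spermathecae (log2 -3.60, SE 0.454, limma adjusted p = 0.000151). Probe set 1623735_at of E5 read 62.0 and 52.6 in wild-type lower tract and 1.41 and 7.17 in wild-type spermathecae (log2 -3.17, SE 0.453, adjusted p = 0.00035). With spermatheca signals raised to the medians, inv was at least 4.53-fold and E5 at least 3.05-fold lower in wild type. In the mutant the log2 differences were -3.46 for inv (adjusted p = 0.00018) and -2.63 for E5 (adjusted p = 0.00107). The probe sets of dac, en, eg and inv carry the suffix _s_at, which marks probes that match more than 1 transcript, so whether en and inv are read fully apart was not tested.

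**Figure D3:**
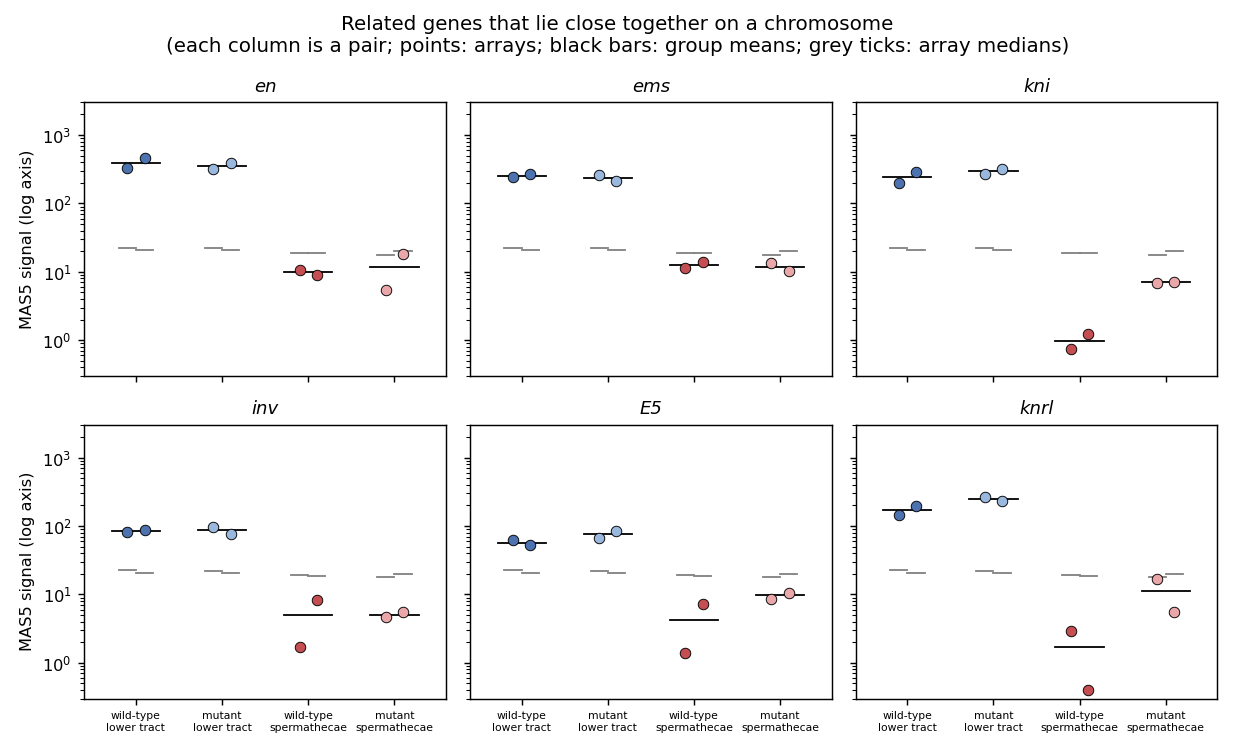
MAS5 signal (log axis) of 3 pairs of related genes that lie close together, one pair per column: en with inv, ems with E5 and kni with knrl. Points are arrays, black bars are group means and grey ticks are array medians; all 6 genes are above the array medians on the 4 lower tract arrays and below them on the 4 spermatheca arrays.

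Markers of several other cell types differed between the organs. Over all probe sets tested, 21.4% were called lower and 22.1% higher in wild-type spermathecae. In mutant spermathecae 21.3% were lower and 24.6% higher. Of the 7 muscle marker probe sets, 7 were lower in spermathecae in both genotypes, and their summed signal was 38980 to 51433 in the lower tract and 3921 to 5052 in spermathecae. The 5 secretory markers were higher in spermathecae for 5 of 5. Crystal cells are blood cells that depend on lz, and the summed signal of their markers PPO1 and PPO2 was 423 to 778 in the lower tract and 179 to 245 in spermathecae, opposite to lz. Of these, PPO2 passed in wild type, and both passed in the mutant. Of 6 tested hemocyte markers, 4 were lower and 1, srp, was higher in wild-type spermathecae, and 5 were lower and 1 higher in mutant spermathecae. Fat body markers were lower in spermathecae for 4 of 4 tested in wild type, while in the mutant 1 was higher and 0 were lower. Germline markers were lower for 2 of 3 tested in wild type and 0 of 3 in the mutant, and wild-type lower tract replicate 1 is the array with germline transcripts. The part of these cell types in the organ differences of the patterning genes was not tested.

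Mutant and wild-type spermathecae were compared to see which of these genes differ in the gland when Hr39 is mutated. The dac signal was 2.39-fold lower in the mutant and the hh signal 1.99-fold higher. The kni signal also passed the test, at levels below the array medians in both genotypes. In all 3 of the 9 genes passed (limma), 2 higher and 1 lower, where 7.81% of the probe sets tested did, 3.99% higher and 3.82% lower. This count is a description only, since kni, 1 of the 2 higher genes, entered the test through the lower tract. The genotypes did not overlap for 6 of the 9 genes, against 51% of all probe sets tested. Of these, lz, dac and hh were above the array medians, whereas kni, knrl and eg were below them on all 4 arrays. Without detection calls, no order was read from such low signals.

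For dac the values were 109 and 83.1 in wild type and 34.9 and 41.7 in the mutant, so both mutant arrays were lower (log2 -1.26, SE 0.307, limma adjusted p = 0.0361). The same wild-type spermatheca arrays enter this comparison and that of the wild-type organs. The call was lost with quantile normalization (adjusted p = 0.058), with no filter (0.0886) and with a replicate block (0.0515). It was also lost without mutant lower tract replicate 1 (0.0678) or 2 (0.0681), mutant spermathecae replicate 1 (0.174) or 2 (0.12), and wild-type spermathecae replicate 1 (0.163). The adjusted p ranged from 0.0203 to 0.0886 over the other settings and from 0.0299 to 0.174 without 1 array, with a log2 difference between -1.45 and -0.99 throughout.

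For hh the values were 546 and 409 in wild type and 902 and 988 in the mutant, with both mutant arrays higher (log2 0.99, SE 0.196, limma adjusted p = 0.0134). The call was lost with no variance trend (adjusted p = 0.0512) and without mutant spermathecae replicate 1 (0.0666) or 2 (0.117). The adjusted p ranged from 0.00934 to 0.0512 over the other settings and from 0.011 to 0.117 without 1 array, and the log2 difference stayed between 0.79 and 1.20.

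The signal of kni was 0.734 and 1.23 in wild-type and 6.82 and 7.21 in mutant spermathecae (log2 1.33, SE 0.315, limma adjusted p = 0.0316). These values stood between the 2nd and the 30th percentile of their arrays, at 2.04% and 6.21% in wild type and 29.6% and 29.2% in the mutant. The call was lost with a pseudocount of 20 (log2 0.36, adjusted p = 0.385), with no filter (0.0876) and when fitted on the 4 spermatheca arrays alone (0.302). It was lost too without mutant lower tract replicate 1 (0.0817) or 2 (0.084), mutant spermathecae replicate 1 (0.104) or 2 (0.133), and wild-type spermathecae replicate 1 (0.0806). The adjusted p ranged from 0.00424 to 0.385 over the other settings and from 0.0328 to 0.133 without 1 array. Its relatives had log2 differences of 1.53 for knrl (SE 0.447, adjusted p = 0.0711) and 0.61 for eg (SE 0.379, adjusted p = 0.399), also from signals below the medians of all 4 arrays. Raising signals to the medians leaves only the ratio of the medians, 1.01-fold for each of kni, knrl and eg, and cannot compare the genotypes. No order of the genotypes was read for these 3 genes, since their signals are low and no detection calls were given. Without mutant spermathecae replicate 2 knrl passed (log2 2.12, adjusted p = 0.0408), and its adjusted p ranged up to 0.352 without 1 array and from 0.0619 to 0.276 over the other settings.

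The other 4 genes did not pass in the spermathecae. For lz the mutant arrays, at 132 and 103, lay below the wild-type arrays at 156 and 175 (log2 -0.49, SE 0.34, limma adjusted p = 0.455). The log2 differences of peb, en and ems were -0.30 (SE 0.491), 0.05 (SE 0.399) and -0.08 (SE 0.265), with overlapping arrays and adjusted p of 0.791, 0.963 and 0.899. With 2 arrays per group, these SEs leave room for differences in either direction.

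Some markers of other cell types also differed between the genotypes of the spermathecae. The secretory markers summed to 98931 and 69903 in wild type and to 71307 and 95116 in the mutant, with 0 of 5 called. Muscle markers summed to 4025 and 3921 in wild type and to 5036 and 5052 in the mutant, with 2 of 7 probe sets higher and 1 lower, against 7.81% of all probe sets called. The probe sets of the muscle gene Mf disagreed, at 319 and 268 in wild type against 1966 and 2187 in the mutant on 1635372_a_at (limma adjusted p = 1.74e-05) and at 1868 and 1636.5 against 1038 and 917 on 1636600_a_at (adjusted p = 0.0137). Act87E, a muscle actin gene, was higher by 1.08 on the log2 scale (adjusted p = 0.00529). Of 4 tested fat body markers 1, Lsd-1, was higher (log2 0.75, adjusted p = 0.0411), and of 6 tested hemocyte markers 1, Col4a1, was lower (log2 -0.76, adjusted p = 0.0471). Crystal cell markers summed to 213 and 245 in wild type and to 179 and 193 in the mutant, with 0 of 2 called. The part of these cell types in the differences of dac and hh was not tested.

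In the lower tract 0 of the 9 genes passed between the genotypes in limma, and 0 had an unadjusted p below 0.05, where 5.59% of the probe sets tested were called, 2.32% higher and 3.26% lower. The genotypes did not overlap for 2 of the 9, against 49% of all probe sets tested. For dac the mutant arrays, at 25.8 and 29.6, lay below the wild-type arrays at 31.8 and 45.5 (log2 -0.42, SE 0.307, adjusted p = 0.571). For knrl the mutant arrays, at 268 and 229, lay above those of wild type at 144 and 194 (log2 0.56, SE 0.447, adjusted p = 0.622). The hh arrays overlapped (log2 0.08, SE 0.196, adjusted p = 0.902). Wild-type lower tract replicate 1, the array with germline transcripts, was the lower of its pair for dac, hh, en, ems, kni, knrl and eg. Fat body markers summed to 9771 and 10081 in wild-type lower tract and to 4905 and 5486 in the mutant. Of 4 tested, 2 were lower in the mutant and 0 were higher. Of other markers, 1 of 7 muscle, 1 of 6 hemocyte and 1 of 2 crystal cell probe sets were higher. The part of these cell types in the lower tract values was not tested.

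**Figure D4:**
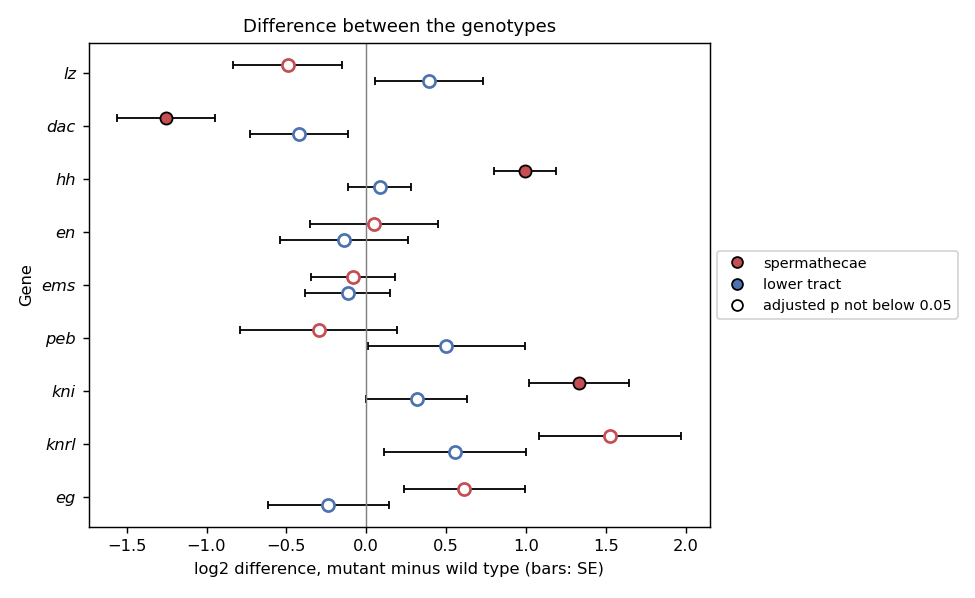
Difference between the genotypes (log2, mutant minus wild type) for each gene, drawn for spermathecae and for lower tract, with bars for the SE. Filled points passed the test (limma adjusted p below 0.05): dac at -1.26, hh at 0.99 and kni at 1.33, all in the spermathecae.

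Whether the mutant effect differed between the organs was tested as an interaction, in which 0 of the 9 genes passed in limma and 2 had an unadjusted p below 0.05, where 2.88% of probe sets were called, 1.65% higher and 1.23% lower. The smallest p was that of hh, with a log2 difference of 0.91 between its effect in spermathecae and in lower tract (SE 0.277, adjusted p = 0.144). That of kni was 1.02 (SE 0.445, adjusted p = 0.35). For dac the interaction was -0.83 (SE 0.434, adjusted p = 0.443) and for lz -0.89 (SE 0.48, adjusted p = 0.469). The calls of dac, hh and kni in the spermathecae alone are therefore not shown to be particular to that organ.

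The wider pathways of these genes were described with gene lists, which hold 70 tested probe sets of 57 genes. Of the 70, 19 were higher and 26 lower in wild-type spermathecae than in lower tract, and 1 was higher and 3 were lower in mutant than in wild-type spermathecae. As shares these are 64.3% called between the organs, against 43.5% of all probe sets, and 5.71% between the genotypes, against 7.81%. Lists were restricted to probe sets that passed the filter, so these counts describe them and support nothing.

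Of the hedgehog pathway, 17 probe sets of 16 genes were tested besides hh. In wild type 4 were higher and 7 lower in spermathecae, where 22.1% and 21.4% of all probe sets were, with a list median of -0.18 against 0.07 for all probe sets. The effector gene ci read 313 and 294 in wild-type lower tract and 54.0 and 53.2 in wild-type spermathecae (log2 -2.44, SE 0.204, limma adjusted p = 9.36e-06), opposite to hh. The gene rasp, whose enzyme attaches the lipid that active Hedgehog carries, moved with hh, at 95.9 and 69.5 in lower tract and 210 and 202 in spermathecae (log2 1.30, adjusted p = 0.000622). Of the other called members, rdx, which encodes an adaptor for breakdown of Ci, was higher by 1.24 on 1636254_s_at (limma adjusted p = 0.00193). Values of rdx on its probe set 1626265_at are not given here. The gene dlp, for a glypican that binds Hedgehog, had a difference of -0.76 (adjusted p = 0.00193). Between the genotypes 0 of 17 passed in limma in either organ, with 2 at an unadjusted p below 0.05 in spermathecae and 0 in the lower tract. The receptor gene ptc, a known target of the signal and named here after its values were seen, read 32.1 and 25.1 in wild-type and 27.2 and 19.4 in mutant spermathecae (log2 -0.27, SE 0.377, adjusted p = 0.738), while hh was higher in the mutant.

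Genes of the engrailed and segment polarity list were lower in wild-type spermathecae for 6 of 7 tested probe sets and higher for 0, where 21.4% of all probe sets were lower and 22.1% higher, with a list median of -3.35. Most of the spermatheca signals of this list are below the array medians, so folds are given as bounds, with such signals raised to the medians. The pair-rule gene odd, on 1625850_at, read 192 and 284 in wild-type lower tract and 7.24 and 5.42 in wild-type spermathecae (log2 -4.67, limma adjusted p = 2.83e-05), at least 12.5-fold lower. The appendage gene Dll differed by at least 3.56-fold on 1636088_at (adjusted p = 0.000163) and at least 11.8-fold on 1630237_a_at (adjusted p = 0.000395), while 1625771_at did not pass (log2 -0.45, adjusted p = 0.309), and gsb-n, a paired-class homeobox gene, passed with a bound of at least 2.74-fold (adjusted p = 0.000375). Of the list of ems relatives and head gap genes, both tested probe sets were lower, btd by at least 14.0-fold (adjusted p = 6.67e-05) and E5 by at least 3.05-fold. None of the tested probe sets of these lists passed between the genotypes in limma in either organ, and of the 7 segment polarity probe sets 1 had an unadjusted p below 0.05 in each organ.

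Of 6 tested probe sets for partners and downstream genes of Lozenge, 2 were higher and 1 was lower in wild-type spermathecae, a share near the 43.5% of all probe sets called. The GATA factor gene srp, which acts with lz in blood cells, read 2332 and 2235 in wild-type spermathecae and 127 and 160 in lower tract (log2 3.97, limma adjusted p = 1.22e-07), and its partner ush was higher by 2.27 (adjusted p = 0.000344). PPO2, a phenoloxidase gene of crystal cells, differed by -1.71 (adjusted p = 0.000112). The other phenoloxidase gene, PPO1, was higher in mutant than in wild-type lower tract, at 359 and 379 against 191 and 202 (log2 0.90, SE 0.178, adjusted p = 0.017). Leaving out mutant lower tract replicate 1 or 2 ended that call (0.134 and 0.146), as did leaving out wild-type lower tract replicate 1 (0.0815), while over the other settings the adjusted p ranged from 0.011 to 0.0406. Of 6 tested hemocyte markers, 1 was higher and 0 were lower in mutant than in wild-type lower tract. That 1 was NimC1, at 322 and 331 in the mutant against 35.1 and 51.8 in wild type (limma log2 2.85, adjusted p = 0.00128). Over all probe sets tested, 2.32% were higher and 3.26% lower in that comparison. The part of hemocytes in the PPO1 difference was not tested.

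Of the remaining lists, a few genes passed in mutant spermathecae. The bric-a-brac gene bab2, which patterns abdomen and ovary, fell from 427 and 307 to 155 and 161 (log2 -1.18, SE 0.203, limma adjusted p = 0.0066), and was at 0.0521 without mutant spermathecae replicate 1 and at 0.0529 without replicate 2. The Hox gene Antp rose on 1640208_s_at from 20.5 and 25.4 to 54.0 and 73.9 (log2 1.36, SE 0.278, adjusted p = 0.0159), and was at 0.142 without mutant spermathecae replicate 2, at 0.067 without wild-type spermathecae replicate 1 and at 0.0593 when fitted on those 4 arrays alone. On its other tested probe set Antp differed by 1.37 (adjusted p = 0.0898). The protease gene kuz, which processes Notch, fell from 178 and 202 to 90.2 and 90.5 (log2 -1.04, SE 0.251, adjusted p = 0.0343). That call was lost without either array of mutant lower tract, mutant spermathecae or wild-type spermathecae, with adjusted p from 0.0687 to 0.165, and also with quantile normalization (0.0606) and with no filter (0.0608). These 3 were the single called members of 15 probe sets for genital disc and sex determination, 5 for Hox genes and cofactors and 10 for the Notch pathway, and 7.81% of all probe sets were called in that comparison.

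Between the wild-type organs the same lists held dsx, the sex determination factor, higher in spermathecae by 1.27 on 1640799_at (limma adjusted p = 0.00212), and bnl, which encodes a fibroblast growth factor, which was at least 14.4-fold lower on 1627135_at (log2 -4.48, adjusted p = 2.98e-06) and differed by -1.54 on 1634109_a_at, which did not pass (adjusted p = 0.0626). The retinal determination factor so, which works in the same eye network as Dachshund, read 67.5 and 57.6 in wild-type lower tract and 9.87 and 20.2 in wild-type spermathecae (log2 -1.92, adjusted p = 0.0096, at least 3.19-fold), opposite to dac. The call of so was lost without wild-type spermathecae replicate 1 (log2 -1.49, adjusted p = 0.0593).

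Across the 8 arrays 7 of the 9 genes formed a side with lz and peb (r = 0.988) and a side with en, ems, kni, knrl and eg, whose pairwise r lay between 0.936 and 0.992. The r of hh was 0.868 with lz and 0.887 with peb. For dac these were 0.663 and 0.614, and hh and dac had r = 0.405. These values describe 8 arrays that share organs, and they mostly restate the organ difference. The gene most like peb was Send2, a secreted protease gene of the spermathecae (r = 0.995), followed by CSN7 and CG17234. The gene most like en was odd (r = 0.997), and the genes most like lz were CG31142, Vps20 and CG4025 (r = 0.994 for each). For ems they were cmb, Zasp66 and cysu (r = 0.999 or above), for kni CG43078, Act87E and Men, for knrl CG5191, Gbs-70E and Spn31A, and for eg Mipp1, Tollo and CG32091. Between 226 and 819 probe sets had r above 0.95 with each of these 7 genes and with hh, whose nearest were Fhos, ORMDL and Sbat (r = 0.988, 0.987 and 0.987). The pattern of dac was shared by fewer, with 19 probe sets above 0.95, and its nearest were GV1 (r = 0.993), SkpA, a subunit of a ubiquitin ligase (r = 0.975), and CG13751 (r = 0.971).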

How the data were processed

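The authors deposited intensities as linear values. The submitters' processing notes name MAS5 and no version of it. With the lowest and highest 2% of probe sets left out, every array averaged 150, so the authors had scaled them. Of 18952 probe sets, 183 controls were left out. Values were taken to log2 after adding 3, the 20th percentile (3.48) of all values, rounded. The test kept 10113 probe sets whose signals, in 1 group or more, were at or above the median of each array. Linear models were run in R 4.3.3 with limma 3.58.1 (1 mean per group over 8 arrays, eBayes with a variance trend, 4 residual degrees of freedom), two-sided, with Benjamini-Hochberg adjustment over all probe sets tested in a comparison and calls below 0.05. The fit was tested on simulated data. A bound ("at least") raises signals below an array's median to that median.

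Depth does not apply to arrays, and their number limits the precision. Members, gene lists and markers were chosen with earlier results of these data known. Named were every member probe set, up to 4 called probe sets per list and comparison, and the 3 genes with the highest Pearson r to each member. Symbols matched current names through Entrez identifiers for 13544 of 13647 probe sets with 1 symbol. 402 probe sets with several symbols were not named.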

Additional observations from a re-analysis of the deposited data

Results flagged for a closer look

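The mutant effect on PPO1 differed between the organs by the interaction test (log2 -1.38, SE 0.252, limma adjusted p = 0.0185): its log2 difference was 0.90 in the lower tract and -0.48 in the spermathecae, where it did not pass (adjusted p = 0.148). The adjusted p of the interaction was 0.107 and 0.105 without mutant lower tract replicates 1 and 2, 0.0576 and 0.0833 without mutant spermathecae replicates 1 and 2, and 0.0572 without wild-type lower tract replicate 1.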

How the results depend on the processing

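No called difference of a named gene changed sign under the alternatives run. A fit of the 4 arrays compared cannot give the interaction and was not run for it. The count of patterning genes called in mutant against wild-type spermathecae was 3. It was 1 with no filter and 2 with quantile normalization, no variance trend, a pseudocount of 20, the 4 spermatheca arrays alone or a replicate block. It was also 2 with a filter at the 75th percentile, under which dac was not tested. Without 1 array it ranged from 0 to 3. In the lower tract and in the interaction it was 0 throughout, between the wild-type organs 8 or 9, and between the mutant organs 8 throughout. Without 1 array, the count over all probe sets ranged from 305 to 1137 in the spermathecae (790 with all arrays), from 177 to 708 in the lower tract (565) and from 107 to 424 for the interaction (291). Leaving out mutant arrays of the organ compared gave 414 and 305 (spermathecae replicates 1 and 2) and 177 and 229 (lower tract replicates 1 and 2), and leaving out wild-type lower tract replicate 1 gave 328. The causes were not tested. A pseudocount of 4 was tried after the data were seen.

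With a replicate block (original against duplicate array), 2 patterning genes were called in the spermathecae (dac lost, adjusted p = 0.0515), and 768 probe sets in all. Same-numbered arrays did not deviate together (r from -0.03 to 0.02 over 6 pairs of groups). Between the wild-type organs, median centring moved the median of all probe sets from 0.07 to 0.24 and quantile normalization to 0.18, and the directions of the 9 genes were the same under both. No detection calls were given, so no order was read from signals below the array medians.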

Other observations

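Of 10 tested probe sets of the Notch pathway, which induces peb in follicle cells, 4 were higher and 4 lower in wild-type spermathecae than in lower tract, where 22.1% of all probe sets were higher and 21.4% lower. The co-repressor gene H read 183 and 200 in wild-type spermathecae and 50.2 and 81.6 in wild-type lower tract on 1639839_s_at (log2 1.53, SE 0.269, limma adjusted p = 0.00127), and was also higher on 1638568_s_at, at 182 and 229.8 against 104 and 98.4 (adjusted p = 0.00311). The smallest adjusted p of the list was that of kuz, at 178 and 202 in wild-type spermathecae and 37.2 and 55.5 in wild-type lower tract (limma log2 1.99, SE 0.251, adjusted p = 0.000155). The homeobox gene ct is repressed in follicle cells when Notch is active. On 1625385_at it read 11.1 and 21.2 in wild-type spermathecae and 49.9 and 68.8 in wild-type lower tract (log2 -1.74, SE 0.39, adjusted p = 0.00529), at least 2.93-fold lower. Values of ct on its probe sets 1637687_at and 1638337_at are not given here.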
